A study of Mus musculus with 11 samples.

Results

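Expression of 10 circadian clock genes was measured by RNA-seq in the hearts of 11 male mice. The genes were the transcriptional activators Arntl and Npas2, the repressors Per1, Per2, Per3 and Cry1, the nuclear receptors Nr1d1 and Nr1d2, and the PAR bZIP output factors Dbp and Tef. They were chosen by symbol from 22608 genes in the deposited table, through GENCODE release M21, and all 10 passed the filter on low counts, as did 11319 genes in all. The study used the complete deletion (CD) model of Williams-Beuren syndrome, in which mice carry a heterozygous deletion from Gtf2i to Fkbp6 on mouse chromosome 5, on a C57BL/6 background (C57BL/6J in the study's methods). CD mice and WT littermates aged 8 to 16 weeks received vehicle (VEH) or JZL184, an inhibitor of the enzyme monoacylglycerol lipase that degrades the endocannabinoid 2-arachidonoylglycerol, at 8 mg/kg by intraperitoneal injection for 10 days; the labels call the controls untreated. There were 3 hearts each of CD VEH, CD JZL184 and WT JZL184 and 2 of WT VEH, named here by the letters of the deposited columns. A letter shared by mice of different groups does not link them.

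The molecular clock is a feedback loop that runs in nearly every cell, cardiomyocytes included. ARNTL (BMAL1), paired with CLOCK or its relative NPAS2, binds E-boxes and switches on the Per and Cry genes, the Nr1d genes and Dbp, and the PER and CRY proteins then inhibit their own activators. The receptors REV-ERBα (Nr1d1) and REV-ERBβ (Nr1d2) repress Arntl, Npas2 and Cry1 through ROR elements, while DBP and TEF activate genes with D-boxes. In peripheral tissues of mice kept in a light/dark cycle, Arntl, Npas2 and Cry1 peak from late night to dawn, whereas Nr1d1, Nr1d2, Dbp, Tef, Per1, Per2 and Per3 peak in succession from day to dusk. The levels in a single heart therefore depend on the hour at which it is taken. The mice were kept in a 12 hr light/dark cycle and handled in the light phase, and the hour at which each heart was taken is not given in the sources used here.

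None of the 10 genes lies on chromosome 5, which holds the deletion. In GRCm38 (GENCODE M21), the activators are Arntl on chr7:113207465-113314126 and Npas2 on chr1:39193731-39363236. The repressors are Per1 on chr11:69095217-69109960, Per2 on chr1:91415982-91459324, Per3 on chr4:151003652-151044665 and Cry1 on chr10:85131700-85185064. The receptors are Nr1d1 on chr11:98767932-98775333 and Nr1d2 on chr14:18204054-18239127, and the output factors Dbp on chr7:45705088-45710203 and Tef on chr15:81802421-81826863.

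RefSeq promoter windows (GRCm38.p6, 250 bases before to 50 after a gene start) were available for 9 of the 10 genes, 12 windows in all. They were searched on both strands for the E-box CACGTG, the D-box TTATGNAA and the ROR element TAGGTCA, none of which overlapped in these windows. Of all 32851 windows, 7.15% held the E-box, 3.38% the D-box and 2.61% the ROR element. The windows below show the letters through which these genes are known to act on each other: a ROR element in Arntl, an E-box in Cry1 and in Per1, and D-boxes in Per1 and Per3. Dbp, the gene with the widest range of expression here, is shown for contrast. Matches are in capitals.
Arntl, chr7:113207261-113207560, plus strand: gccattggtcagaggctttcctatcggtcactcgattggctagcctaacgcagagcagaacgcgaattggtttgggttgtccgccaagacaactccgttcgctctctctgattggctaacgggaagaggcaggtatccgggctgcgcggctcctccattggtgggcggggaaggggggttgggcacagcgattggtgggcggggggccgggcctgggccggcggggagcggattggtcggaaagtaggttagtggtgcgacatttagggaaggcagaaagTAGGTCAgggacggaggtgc
Cry1, chr10:85185005-85185304, minus strand: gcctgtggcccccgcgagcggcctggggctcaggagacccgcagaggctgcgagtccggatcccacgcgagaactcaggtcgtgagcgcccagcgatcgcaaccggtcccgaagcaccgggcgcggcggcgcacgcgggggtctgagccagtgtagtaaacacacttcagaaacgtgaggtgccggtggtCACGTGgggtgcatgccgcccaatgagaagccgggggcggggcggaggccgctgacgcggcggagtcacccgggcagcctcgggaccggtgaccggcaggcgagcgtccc
Per1, chr11:69098699-69098998, plus strand: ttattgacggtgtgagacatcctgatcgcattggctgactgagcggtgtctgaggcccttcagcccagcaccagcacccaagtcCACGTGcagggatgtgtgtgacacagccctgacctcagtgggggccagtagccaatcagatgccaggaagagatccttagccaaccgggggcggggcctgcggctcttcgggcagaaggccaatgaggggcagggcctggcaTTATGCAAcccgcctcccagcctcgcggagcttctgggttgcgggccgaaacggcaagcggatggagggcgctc
Per3, chr4:151044616-151044915, minus strand: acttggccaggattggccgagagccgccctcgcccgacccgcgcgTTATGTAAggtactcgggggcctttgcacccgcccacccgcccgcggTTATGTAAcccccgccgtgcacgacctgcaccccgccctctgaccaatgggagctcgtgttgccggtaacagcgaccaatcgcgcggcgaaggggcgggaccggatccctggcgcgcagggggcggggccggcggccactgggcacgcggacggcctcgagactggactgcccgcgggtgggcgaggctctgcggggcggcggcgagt
Dbp, chr7:45704997-45705296, plus strand: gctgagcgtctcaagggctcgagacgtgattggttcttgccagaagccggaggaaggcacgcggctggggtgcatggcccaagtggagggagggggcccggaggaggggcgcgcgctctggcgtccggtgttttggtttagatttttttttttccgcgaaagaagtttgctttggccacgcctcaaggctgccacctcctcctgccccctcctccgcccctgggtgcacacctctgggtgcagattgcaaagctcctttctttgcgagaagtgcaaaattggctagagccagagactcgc
The ROR element of Arntl lay 30 bases after the start used for this window. Both windows of Tef held 1 E-box. No match to these letters was found in the windows of Npas2, Nr1d1, Nr1d2 and Dbp, in the other window of Arntl or in the other window of Per1, which says nothing of sites elsewhere in these genes.

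The libraries held between 69660329 and 92251550 estimated counts per mouse, of which 36.4% to 46.6% came from the mitochondrial genome. This share was 43.5% to 46.6% in the WT JZL184 and CD VEH hearts and 36.4% to 41.2% in the WT VEH and CD JZL184 hearts. The 10 clock genes had between 190 and 7405 counts in any mouse, so counting error was small beside the wide differences between mice, though not beside near ties. All 14 tested genes of the deleted interval (16 listed) were lower in the 6 CD hearts than in any WT heart, so the genotypes matched the labels. The cardiomyocyte markers (Myh6, Actn2, Tnnt2, Ryr2, Myl2 and Tnni3) summed to between 23242 and 32755 CPM (counts scaled to the library total after TMM adjustment) in every heart, and of 4 markers of the atria Myl7, Sln and Myl4 were too low to be tested, Nppa was tested, and the 4 summed to between 50.5 CPM, in CD VEH A, and 221 CPM, in WT JZL184 B. Sums of markers of other cell types were higher in the WT JZL184 and CD VEH hearts than in the WT VEH and CD JZL184 hearts: 639 to 796 against 501 to 582 CPM for 5 endothelial genes, 668 to 898 against 528 to 588 for 5 fibroblast genes, 790 to 911 against 561 to 583 for 5 smooth muscle and pericyte genes and 123 to 195 against 91.1 to 102 for 5 macrophage genes. Globin genes reached 18656 CPM in CD VEH A, and the sum of 4 adipocyte genes stayed at or under 1.75. The part of these cells in the clock gene levels was not tested. As the hearts are bulk tissue, fewer cells of a type and less RNA per cell cannot be told apart.

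Levels per length (mean ± SD over 11 mice) are CPM per kb of exon, with all annotated exons of a gene joined. This length can exceed that of the transcripts present. By this measure the receptors were the most abundant of the 10 genes. Nr1d1, at 15.8 ± 5.12, was above Nr1d2, at 12.5 ± 2.31, in 9 of 11 hearts. Nr1d2 was above Tef, at 9.30 ± 1.79, in all 11 hearts. Dbp followed at 4.86 ± 3.59, with Per1 at 3.25 ± 1.18. Cry1 (2.45 ± 0.597) was above Per3 (1.15 ± 0.320) in 10 of 11 hearts. The other neighbours below Per1 did not differ beyond their spread: Per1 was above Arntl (2.47 ± 0.637) in 7 of 11 hearts, Arntl above Cry1 in 6, Per3 above Npas2 (0.993 ± 0.254) in 6 and Npas2 above Per2 (0.942 ± 0.445) in 7.

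The activator Arntl, whose loss alone stops the rhythm in mice, differed between mice of the same group in WT JZL184, CD VEH and CD JZL184. Arntl was at 22.3 and 22.7 CPM in WT VEH (C, D), 23.5, 9.23 and 22.1 in WT JZL184 (A, B, D), 13.4, 13.4 and 20.98 in CD VEH (A, C, E) and 16.6, 21.9 and 18.5 in CD JZL184 (A, C, E). The 2 WT VEH hearts were alike, whereas in WT JZL184 mouse B lay below every other heart, and CD VEH A and C were the next lowest. The group means were 22.5 ± 0.284 CPM (SD, n = 2) in WT VEH, 18.3 ± 7.85 (n = 3) in WT JZL184, 15.9 ± 4.39 (n = 3) in CD VEH and 19.0 ± 2.68 (n = 3) in CD JZL184. Both WT VEH hearts were above all CD VEH hearts, but the fitted difference of CD VEH from WT VEH, a log2 fold-change of -0.50 ± 0.31 (SE), did not pass the threshold (edgeR quasi-likelihood test, adjusted p = 0.234). It was -0.75 without CD VEH E.

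Npas2, which can stand in for CLOCK as the partner of ARNTL, had low counts and a like order of mice. Npas2 was at 5.55 and 5.85 CPM in WT VEH (C, D), 4.29, 2.67 and 5.88 in WT JZL184 (A, B, D), 3.88, 2.83 and 5.71 in CD VEH (A, C, E) and 4.38, 5.79 and 5.53 in CD JZL184 (A, C, E). The lowest hearts were again WT JZL184 B and CD VEH C, and the groups overlapped in every comparison. The largest fitted difference between groups was -0.46 ± 0.30 on the log2 scale in CD VEH versus WT VEH (edgeR, adjusted p = 0.255). It was -0.77 without CD VEH E and -0.25 without CD VEH C.

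Cry1, a repressor that peaks with the activators rather than with the Per genes, was the member nearest to a genotype difference in vehicle hearts. Cry1 was at 9.83 and 9.42 CPM in WT VEH (C, D), 10.7, 5.66 and 10.6 in WT JZL184 (A, B, D), 5.11, 5.66 and 7.73 in CD VEH (A, C, E) and 7.75, 8.70 and 8.85 in CD JZL184 (A, C, E). All 3 CD VEH hearts were below both WT VEH hearts and below all 3 CD JZL184 hearts, though CD VEH E (7.73) and CD JZL184 A (7.75) were close, and WT JZL184 B was as low as CD VEH C. The log2 fold-change of CD VEH versus WT VEH was -0.64 ± 0.23 (95% interval -1.15 to -0.13), with an adjusted p of 0.055 in edgeR. It passed the threshold under 4 of 14 other settings, with adjusted p between 0.0183 and 0.204 over them. CD JZL184 versus CD VEH gave 0.45 ± 0.21 (edgeR, adjusted p = 0.114), which passed only when those 2 groups alone were modelled (adjusted p = 0.0353).

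Among the Per genes, which encode the light and hormone responsive arm of the repressor complex, Per1 ran opposite to Arntl within groups. Per1 was at 24.8 and 21.3 CPM in WT VEH (C, D), 8.73, 22.7 and 10.9 in WT JZL184 (A, B, D), 19.9, 27.5 and 14.9 in CD VEH (A, C, E) and 25.1, 9.91 and 15.6 in CD JZL184 (A, C, E). Within groups, hearts low in Arntl were high in Per1: WT JZL184 B was above A and D, and CD VEH C and A were above E. Across groups this did not hold. The WT VEH hearts, with Arntl at 22.3 and 22.7 CPM, were also high in Per1. The mean was 14.1 ± 7.55 CPM (n = 3) in WT JZL184 and 16.9 ± 7.66 CPM (n = 3) in CD JZL184, and the groups overlapped in all comparisons. The log2 fold-change of WT JZL184 versus WT VEH was -0.71 ± 0.41 (edgeR, adjusted p = 0.204). Without WT JZL184 B it was -1.23, with an adjusted p of 0.0363, and without A it was -0.46.

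Per2 was the only clock gene that passed the threshold in any comparison. Per2 was at 5.36 and 5.45 CPM in WT VEH (C, D), 6.90, 12.5 and 5.43 in WT JZL184 (A, B, D), 4.01, 5.02 and 3.09 in CD VEH (A, C, E) and 5.90, 3.02 and 3.99 in CD JZL184 (A, C, E). WT JZL184 B was above all other hearts, at 12.5 CPM, and the lowest hearts were CD JZL184 C and CD VEH E. In CD JZL184 (4.30 ± 1.47 CPM, n = 3) versus WT JZL184 (8.28 ± 3.74, n = 3), the log2 fold-change was -0.94 ± 0.30 and the adjusted p 0.0284 (edgeR), although CD JZL184 A, at 5.90 CPM, was above WT JZL184 D, at 5.43, so the groups overlapped. The call held under 11 of 15 other settings. It was lost without WT JZL184 B, without CD JZL184 C, without CD JZL184 E and when those 2 groups alone were modelled. Without WT JZL184 B the difference itself was -0.52 (adjusted p = 0.135). Per2 lay below both WT VEH hearts in all 3 CD VEH hearts, with a log2 fold-change of -0.42 ± 0.34 (edgeR, adjusted p = 0.359), or -0.26 without CD VEH E.

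Per3, a paralogue that the loop can run without, was at 10.8 and 9.58 CPM in WT VEH (C, D), 9.83, 17.3 and 11.6 in WT JZL184 (A, B, D), 10.9, 10.4 and 6.15 in CD VEH (A, C, E) and 14.6, 7.61 and 12.6 in CD JZL184 (A, C, E). Its highest heart was WT JZL184 B and its lowest CD VEH E, and groups overlapped in every comparison. Its largest fitted difference, 0.34 ± 0.30 in WT JZL184 versus WT VEH, had an adjusted p of 0.409 (edgeR) and was 0.076 without WT JZL184 B.

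The nuclear receptors also differed between mice of a group. Nr1d1 was at 37.1 and 45.3 CPM in WT VEH (C, D), 28.2, 73.05 and 28.9 in WT JZL184 (A, B, D), 68.5, 62.3 and 38.6 in CD VEH (A, C, E) and 47.96, 63.6 and 42.9 in CD JZL184 (A, C, E). WT JZL184 B, CD VEH A and CD VEH C were among the 4 highest hearts, with CD JZL184 C, and the other 2 WT JZL184 hearts were the lowest of all. Nr1d2 was at 62.4 and 62.2 CPM in WT VEH (C, D), 54.9, 84.01 and 51.5 in WT JZL184 (A, B, D), 80.8, 79.5 and 52.5 in CD VEH (A, C, E) and 83.1, 62.5 and 70.1 in CD JZL184 (A, C, E). It varied least of the 10 genes, from 51.5 to 84.0 CPM, and its low hearts were WT JZL184 A and D and CD VEH E. The 3 CD JZL184 hearts were above both WT VEH hearts, though C, at 62.5 CPM, was close to WT VEH C, at 62.4, and the fitted log2 fold-change was 0.21 ± 0.22 (edgeR, adjusted p = 0.792), or 0.090 without CD JZL184 A. For Nr1d1, CD JZL184 versus WT JZL184 gave 0.25 ± 0.33 (edgeR, adjusted p = 0.572), and 0.85 with an adjusted p of 0.0155 without WT JZL184 B.

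Dbp, a direct target of ARNTL known for a rhythm of wide amplitude, had the widest range. Dbp was at 6.62 and 6.25 CPM in WT VEH (C, D), 7.14, 39.1 and 6.89 in WT JZL184 (A, B, D), 27.04, 23.3 and 8.03 in CD VEH (A, C, E) and 13.9, 9.53 and 12.1 in CD JZL184 (A, C, E). WT JZL184 B was 6.26-fold above WT VEH D, and 3 hearts, WT JZL184 B and CD VEH A and C, were at 39.1, 27.04 and 23.3 CPM while the other 8 lay between 6.25 and 13.9. Both WT VEH hearts were below the hearts of all other groups. On the log2 scale the difference was 1.60 ± 0.71 in CD VEH versus WT VEH (edgeR, adjusted p = 0.106), 1.45 ± 0.71 for WT JZL184 versus WT VEH (edgeR, adjusted p = 0.139) and -0.71 ± 0.59 for CD JZL184 versus CD VEH (edgeR, adjusted p = 0.362). Without WT JZL184 B the WT JZL184 difference fell to 0.13 (adjusted p = 0.853), and that of CD JZL184 versus CD VEH was -0.39 without CD VEH A and -1.08 without CD VEH E. With only the 2 vehicle groups in the model, the CD VEH difference had an adjusted p of 0.0272.

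Tef, the PAR bZIP relative of Dbp with a flatter rhythm, was at 78.9 and 70.4 CPM in WT VEH (C, D), 63.6, 99.04 and 69.3 in WT JZL184 (A, B, D), 70.8, 76.5 and 43.9 in CD VEH (A, C, E) and 86.7, 65.4 and 80.5 in CD JZL184 (A, C, E). Its extremes were the same hearts as for Per3, WT JZL184 B at the top and CD VEH E at the bottom. No fitted difference exceeded 0.28 on the log2 scale, the value of CD JZL184 versus CD VEH (edgeR, adjusted p = 0.293), which was 0.081 without CD VEH E and 0.44 without CD VEH C.

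**Figure D1:**
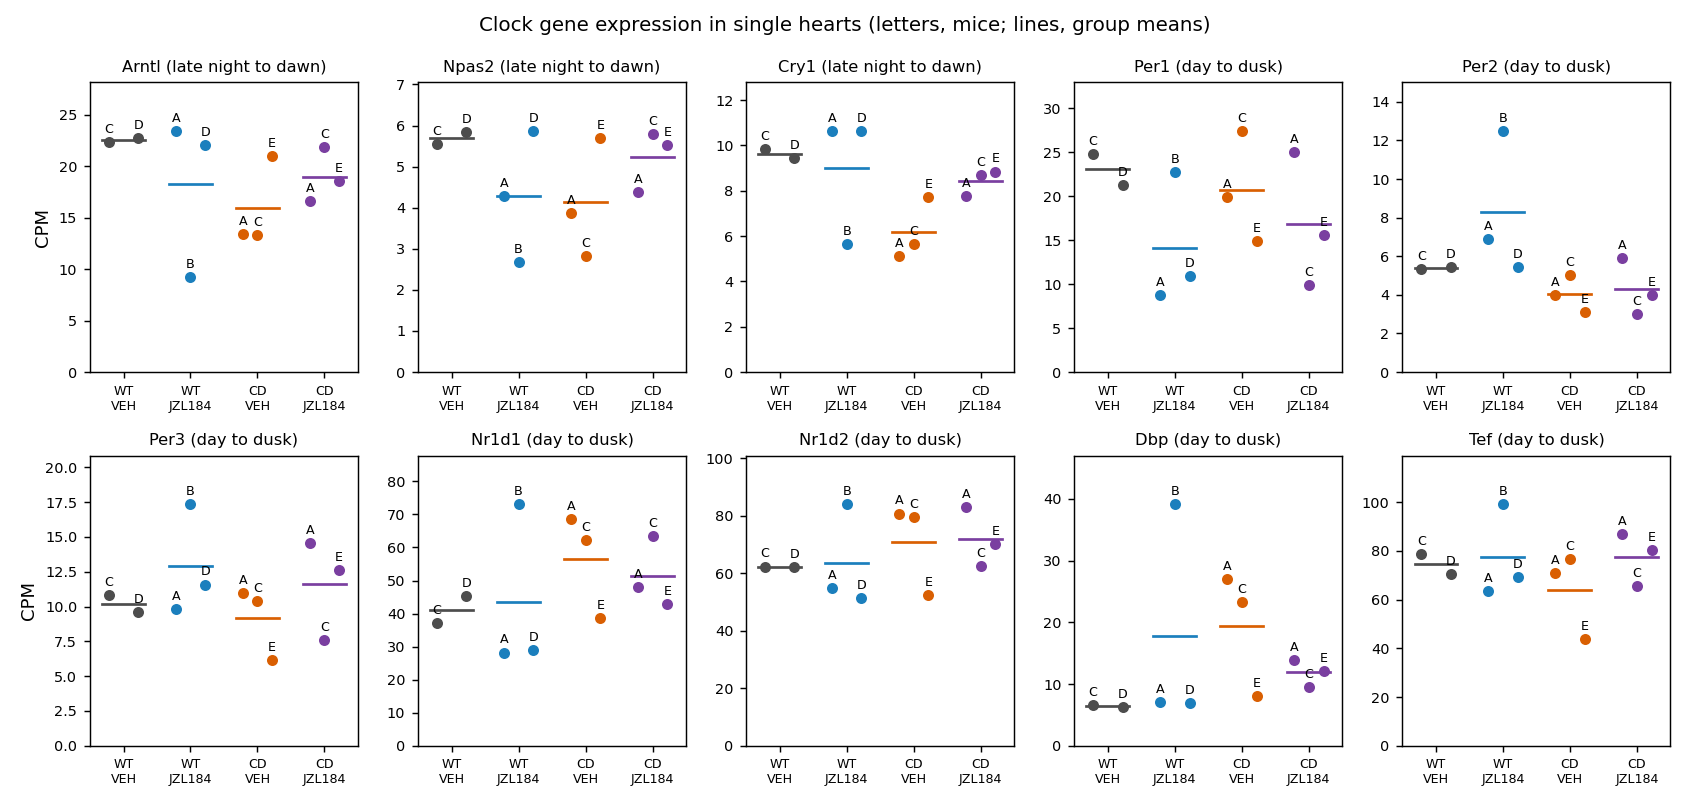
CPM (y axis, from 0) of the 10 clock genes in each heart, by group (x axis); points are mice with their letters and lines are group means. WT JZL184 B is the lowest heart for Arntl and Npas2 and the highest for Per2, Per3, Nr1d1, Nr1d2, Dbp and Tef.

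To set the phases side by side in each heart, the log2 CPM of each gene was centred on its mean over the 11 mice, and the mean of the 7 day to dusk genes was subtracted from that of the 3 late night to dawn genes. The difference was 0.37 and 0.43 in the WT VEH hearts C and D. In WT JZL184 it was 0.60 in A and 0.69 in D but -1.54 in B. In CD VEH it was -0.71 in A and -0.87 in C but 0.68 in E. In CD JZL184 it was -0.37 in A, 0.55 in C and 0.17 in E. Each group other than WT VEH thus held hearts on both sides of 0. The group means were 0.40 ± 0.043 (n = 2) in WT VEH, -0.08 ± 1.26 (n = 3) in WT JZL184, -0.30 ± 0.85 (n = 3) in CD VEH and 0.12 ± 0.46 (n = 3) in CD JZL184. They spanned less than the mice within WT JZL184 or within CD VEH, but means vary less than single mice even where groups are alike. All 11 signs were kept when any 1 of the 10 genes was left out and without TMM factors.

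The ratio of Dbp to Arntl, both as levels in CPM per kb of exon, was highest in the 3 hearts with the most Dbp. It was 0.745 and 0.691 in the WT VEH hearts C and D, 0.764 and 0.784 in WT JZL184 A and D but 10.6 in B, 5.06 and 4.38 in CD VEH A and C but 0.962 in E, and 2.11, 1.09 and 1.65 in CD JZL184 A, C and E. Per kb, Dbp exceeded Arntl in 6 hearts, the 3 CD JZL184 hearts among them. That count depends on the exon lengths. In CPM alone the ratio was 4.23 in WT JZL184 B, 2.01 in CD VEH A and 1.74 in CD VEH C. It was at most 0.841, in CD JZL184 A, in the other hearts. Of the 3 with the highest ratios, WT JZL184 B had 73027006 estimated counts and a mitochondrial share of 46.6%, the lowest depth and the highest share of its group, while CD VEH A and C, at 44.7% and 44.2%, were close to E, at 43.5%. In WT JZL184 B the cardiomyocyte markers summed to 23242 CPM, below the 31708 and 27972 of A and D, and the macrophage markers to 195 CPM against 123 and 167. In CD VEH A the globin genes summed to 18656 CPM, against 2862 in C and 2017 in E, while the cardiomyocyte markers were at 28060, 30449 and 28322 CPM in A, C and E. The part of depth, mitochondrial share and cell types in the clock gene levels of these hearts was not tested.

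**Figure D2:**
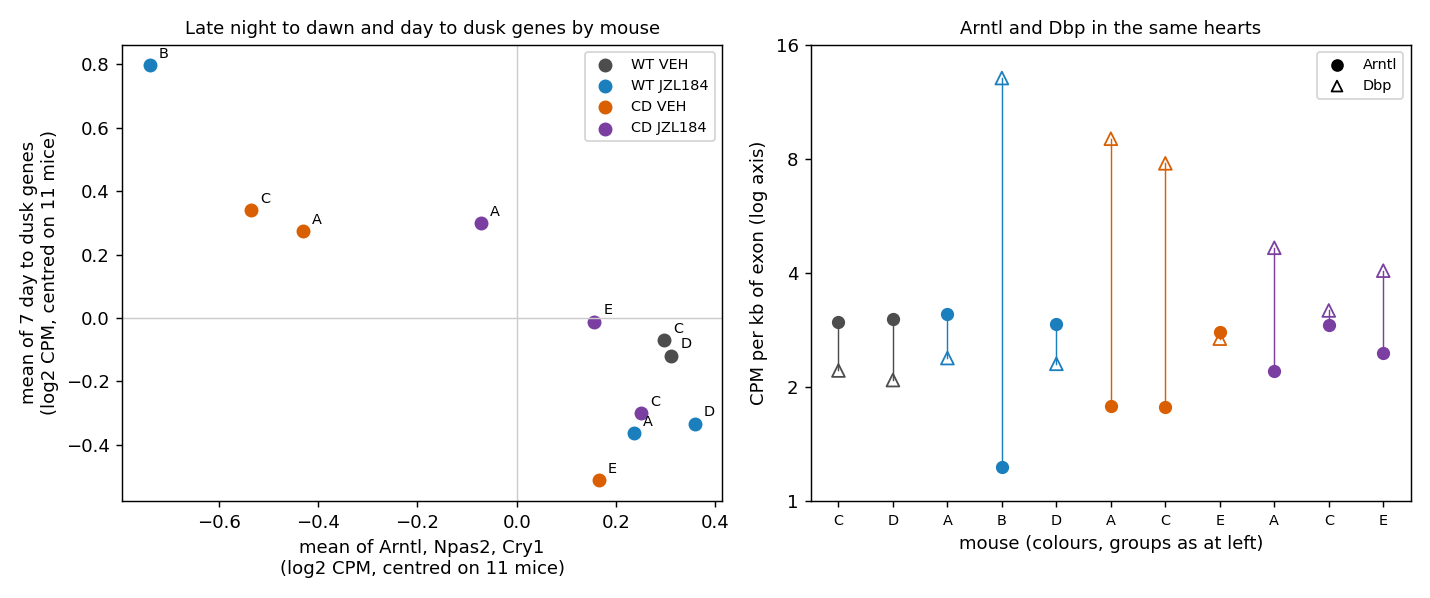
Left, mean centred log2 CPM of the late night to dawn genes (x axis) against that of the day to dusk genes (y axis) in each of 11 hearts; right, Arntl (filled circles) and Dbp (open triangles) in CPM per kb of exon on a log axis in the same hearts. WT JZL184 B, CD VEH A and CD VEH C have the widest gaps between Dbp and Arntl, with ratios of 10.6, 5.06 and 4.38. They lie at the upper left, as does CD JZL184 A, at -0.072 on the x axis and 0.298 on the y axis.

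The genes kept these relations mouse by mouse. The 11 hearts give 10 pairs of mice of the same group, which share mice and are not independent. Between the mice of a pair, Per1 and Tef moved opposite to Arntl in 10 of 10 pairs, Per3 in 9, and Per2, Nr1d2 and Dbp in 8, whereas Nr1d1 did so in 6. Npas2 moved with Arntl in 9 pairs and Cry1 in 7. Nr1d2 moved with Dbp in all 10. Near ties are among these pairs, and counting error can turn their signs. Arntl was at 13.4 CPM in both CD VEH A and C and at 22.3 and 22.7 in WT VEH C and D. In the latter, Nr1d2 was at 62.4 and 62.2 CPM.

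The spread between mice of the same group was wide for these genes. The within-group SD of log2 CPM, with 7 residual degrees of freedom, was 0.93 for Dbp, 0.58 for Per1, 0.51 for Nr1d1, 0.46 for Arntl and for Per2, 0.43 for Per3, 0.42 for Npas2, 0.33 for Cry1, 0.32 for Tef and 0.30 for Nr1d2. Their median was 0.44, against 0.10 over all 11319 tested genes, and all 10 were above the 90th percentile of those genes (0.20). Dbp ranked 17 from the top and Nr1d2, the least variable, ranked 290. In all 10 genes the SD within groups exceeded the SD of the 4 group means, which was so for 37.9% of all tested genes. A mean of several mice varies less than single mice even where groups are alike, so this does not rank mice above groups. Without WT JZL184 B the median SD of the clock genes was 0.33 and all 10 remained above the 90th percentile. When genes of low count were not filtered out, 2 of the 10 were above the 90th percentile, and the median SD over all genes was then 0.16.

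**Figure D3:**
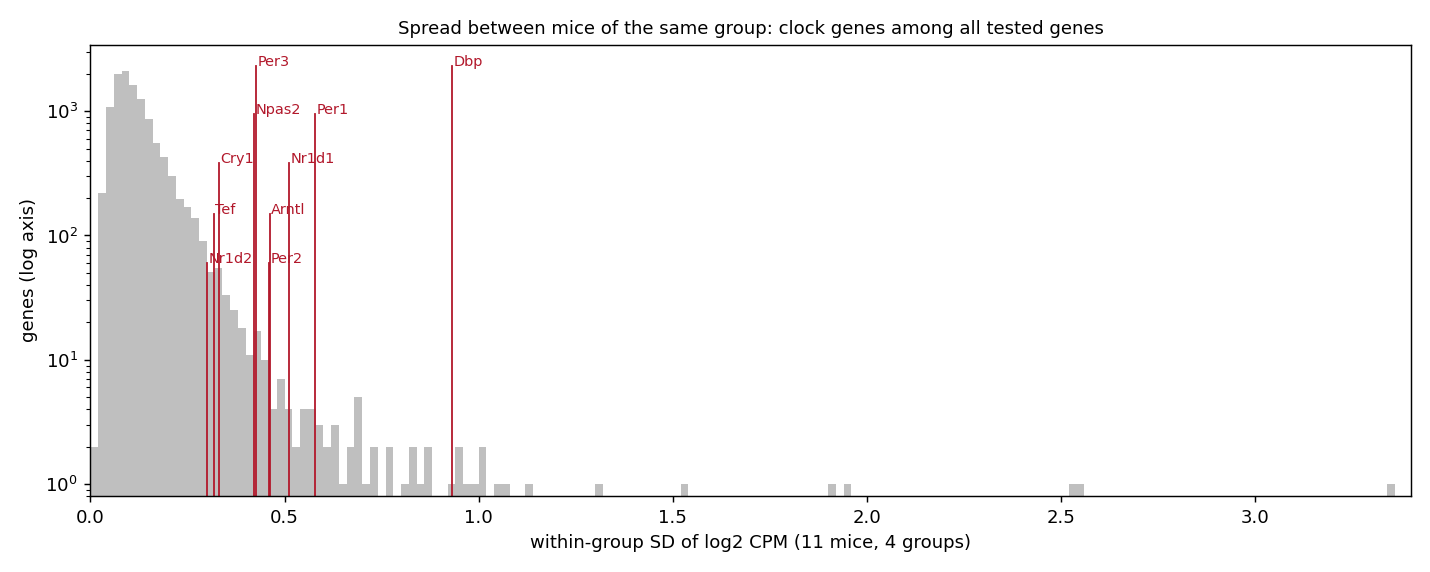
Histogram of the within-group SD of log2 CPM (x axis) over 11319 tested genes (y axis, number of genes, log axis), with the 10 clock genes as labelled lines. All 10 lie in the right tail, from 0.30 for Nr1d2 to 0.93 for Dbp.

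To ask whether genotype or treatment changed clock gene expression, 5 group comparisons and the genotype by JZL184 interaction were tested over all genes. These comparisons share groups, among them the 2 WT VEH hearts, and are given side by side. In CD VEH versus WT VEH, 0 of the 10 clock genes passed an adjusted p of 0.05 (edgeR), against 30.4% of all tested genes (3440 genes, and 385 without WT VEH C), and 2 (Cry1 and Dbp) had an unadjusted p under 0.05. DESeq2 called 1, Cry1. In WT JZL184 versus WT VEH, 0 of 10 passed (29.4% of all genes, 3332, and 558 without WT VEH C), and 0 had an unadjusted p under 0.05. For CD JZL184 versus CD VEH, 0 of 10 passed (33.8% of all genes, 3831, and 2038 without CD VEH E), with 0 at an unadjusted p under 0.05. In CD JZL184 versus WT JZL184, 1 of 10 passed, Per2, against 38.3% of all genes, and Per2 alone had an unadjusted p under 0.05. In CD JZL184 versus WT VEH, 0 of 10 passed, as few genes did (0.186%), with 0 at an unadjusted p under 0.05. In the last 4 of these, DESeq2 called 0, 0, 1 and 0.

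The interaction, the difference between the JZL184 effects in CD and in WT mice, was called for 51.5% of all genes and for 0 of the 10 clock genes, by edgeR and by DESeq2, and 1 had an unadjusted p under 0.05. The largest was Dbp, at -2.17 ± 0.92 on the log2 scale (95% interval -4.18 to -0.15, edgeR, adjusted p = 0.0671). Without WT JZL184 B it was -0.83 (adjusted p = 0.213), whereas it passed without CD VEH E, without WT JZL184 A and without WT JZL184 D. Npas2, at 0.74 ± 0.40 (edgeR, adjusted p = 0.14), passed without CD VEH E and without WT JZL184 D.

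The fitted differences of the clock genes, most of them not called, were not small beside those of other genes, and their errors were larger. Their median absolute log2 fold-change was 0.44 for CD VEH versus WT VEH and 0.32 for WT JZL184 versus WT VEH, where it was 0.19 and 0.18 over all tested genes, and their median SE was 0.31 in both, against 0.09 over all genes. The 95% intervals of Dbp ran from 0.04 to 3.15 in CD VEH versus WT VEH and from -0.10 to 3.01 in WT JZL184 versus WT VEH, so a missed threshold does not show that the groups were alike. Groups without overlap in CPM were found for 4 of 10 clock genes in CD VEH versus WT VEH (Arntl, Per2, Cry1 and Dbp; 64% of all genes), 1 in WT JZL184 versus WT VEH (Dbp; 54.7%), 1 in CD JZL184 versus CD VEH (Cry1; 54.6%), 0 in CD JZL184 versus WT JZL184 (47.9%) and 4 in CD JZL184 versus WT VEH (Arntl, Cry1, Nr1d2 and Dbp; 36.6%).

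**Figure D4:**
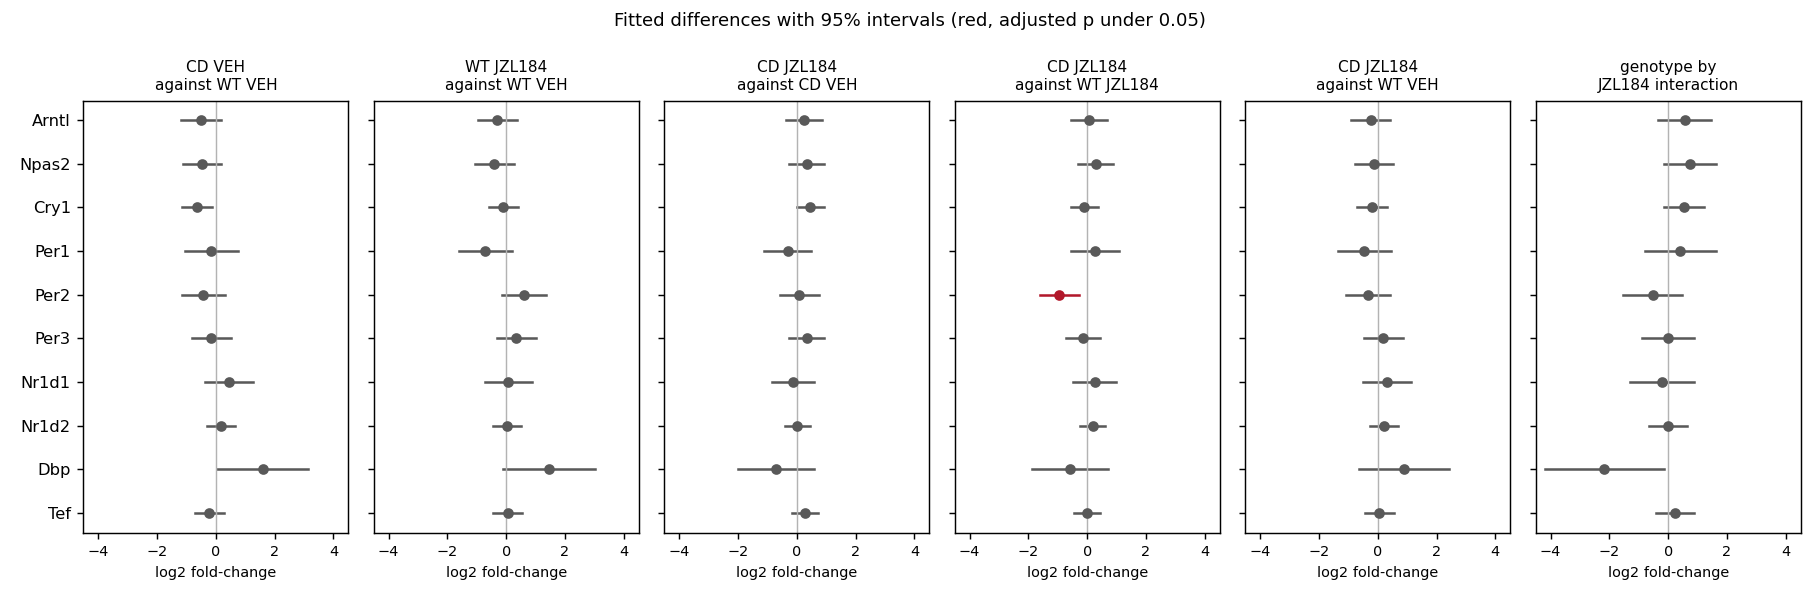
Fitted log2 fold-changes (x axis) of the 10 clock genes with 95% intervals in 5 group comparisons and the interaction, from edgeR; red marks an adjusted p under 0.05. Per2 in CD JZL184 versus WT JZL184, at -0.94, is the only value past the threshold, and the intervals of Dbp are the widest.

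Of 15 further clock genes, 12 were tested (Rorb, Ciart and Fbxl21 were too low). In CD VEH versus WT VEH, 2 of the 12 fell and 1 rose, where 30.4% of all tested genes were called. Nfil3, a repressor that competes with DBP and TEF for D-boxes, fell by 1.13 on the log2 scale (edgeR, adjusted p = 0.0285), and Nfil3 was at 16.03 and 17.5 CPM in WT VEH (C, D), 16.3, 5.14 and 12.8 in WT JZL184 (A, B, D), 5.89, 7.37 and 9.78 in CD VEH (A, C, E) and 9.02, 11.2 and 11.5 in CD JZL184 (A, C, E). Its low hearts, WT JZL184 B and CD VEH A and C, were the 3 in which Dbp was high. Rora, which activates Arntl through ROR elements, fell by 0.29 (edgeR, adjusted p = 0.0449), and Timeless, whose protein acts mainly at replication forks, rose by 0.67 (adjusted p = 0.00544). The call of Timeless was lost without WT VEH C (adjusted p = 0.0552). The calls of Nfil3 and Rora were lost without either WT VEH heart and without CD VEH A or C, that of Rora also without CD VEH E, with adjusted p up to 0.126 and 0.273, that of Nfil3 also with robust dispersion (adjusted p = 0.0622), and that of Rora also with a gene length offset (0.299), upper-quartile factors (0.0716) or no filter on low counts (0.0583). Clock itself was at 64.4 and 57.7 CPM in WT VEH (C, D), 58.2, 40.1 and 52.9 in WT JZL184 (A, B, D), 47.4, 50.3 and 50.8 in CD VEH (A, C, E) and 56.1, 53.9 and 53.1 in CD JZL184 (A, C, E), with a log2 fold-change of -0.30 ± 0.12 (edgeR, adjusted p = 0.0753).

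In 3 of the other comparisons, 1 or 2 of the 12 further clock genes passed: 1 in WT JZL184 versus WT VEH (29.4% of all genes), 2 in CD JZL184 versus CD VEH (33.8%) and 2 in CD JZL184 versus WT JZL184 (38.3%). Timeless rose by 0.76 in WT JZL184 versus WT VEH (edgeR, adjusted p = 0.00358) and decreased by 0.45 in CD JZL184 versus CD VEH (adjusted p = 0.0122), in which Rora rose by 0.34 (adjusted p = 0.0143). The CD JZL184 hearts differed from WT JZL184 in 2 of these genes: Btrc, a ubiquitin ligase subunit that marks PER proteins for breakdown, rose by 0.22 (adjusted p = 0.0494) and Timeless fell by 0.54 (adjusted p = 0.00402). The Timeless calls held under all other settings except without CD VEH E for CD JZL184 versus CD VEH (adjusted p = 0.0573). Timeless was higher in every WT JZL184 and CD VEH heart than in any WT VEH or CD JZL184 heart. So were the summed endothelial, fibroblast, smooth muscle and macrophage markers and the mitochondrial share, whose part in Timeless was not tested. Rora lost its call without CD JZL184 A, CD JZL184 E or CD VEH E (adjusted p up to 0.0591), and Btrc without any 1 CD JZL184 heart, WT JZL184 A or WT JZL184 B (up to 0.173). With a gene length offset both lost it too (adjusted p = 0.0639 and 0.409), and Btrc, called under 6 of 15 other settings, also with RLE factors (0.0517), upper-quartile factors (0.075) and the compared groups alone (0.0773). Against WT VEH, 0 of 12 passed in the CD JZL184 hearts in edgeR, and 0 had an unadjusted p under 0.05. Over the 12 genes the median difference was -0.088 in CD VEH versus WT VEH, where that of all tested genes was 0.0087, and 0.17 in CD JZL184 versus CD VEH, where it was -0.0024.

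Of 10 listed genes with a daily rhythm that lie outside the loop, 8 were tested. Of these, 2 passed in CD VEH versus WT VEH (30.4% of all genes), 3 in WT JZL184 versus WT VEH (29.4%), 2 in CD JZL184 versus CD VEH (33.8%) and 2 in CD JZL184 versus WT JZL184 (38.3%). Klf15, a transcription factor with a known rhythm in heart, was at 49.4 and 48.9 CPM in WT VEH (C, D), 35.8, 30.99 and 31.9 in WT JZL184 (A, B, D), 35.6, 40.1 and 34.4 in CD VEH (A, C, E) and 49.3, 44.98 and 51.8 in CD JZL184 (A, C, E). All WT JZL184 and CD VEH hearts were below all WT VEH and CD JZL184 hearts. The summed endothelial, fibroblast, smooth muscle and macrophage markers and the mitochondrial share divided the hearts into the same groups. They ran in the opposite direction for Klf15 and in the same direction for Tspan4, and their part in these levels was not tested. Klf15 fell by 0.58 in WT JZL184 (edgeR, adjusted p = 0.0023) and by 0.42 in CD VEH (adjusted p = 0.00636) versus WT VEH, and rose by 0.41 in CD JZL184 versus CD VEH (adjusted p = 0.004) and by 0.56 in CD JZL184 versus WT JZL184 (adjusted p = 0.000829). WT JZL184 B, at 30.99 CPM, lay close to A and D for Klf15 but not for Dbp. Herpud1 fell by 0.42 in CD VEH versus WT VEH (adjusted p = 0.0335) and rose by 0.35 in CD JZL184 versus CD VEH (adjusted p = 0.0413), and Klf9 fell by 0.27 in WT JZL184 versus WT VEH (adjusted p = 0.0464) and rose by 0.22 in CD JZL184 versus WT JZL184 (adjusted p = 0.0494). Tspan4, which encodes a tetraspanin, rose by 0.87 in WT JZL184 versus WT VEH (adjusted p = 0.0293), a call lost without either WT VEH heart and with the compared groups alone (adjusted p up to 0.151). Without WT JZL184 B, the highest heart, it was 0.43 and still called. The Klf15 calls held under all other settings but without WT VEH C for CD VEH versus WT VEH (adjusted p = 0.0594). The Herpud1 calls were lost without CD VEH A or E, and without either WT VEH heart (adjusted p up to 0.189) or CD JZL184 A or E where those groups were compared. The Klf9 calls were lost without WT JZL184 A or D, without either WT VEH heart (adjusted p up to 0.168) or any CD JZL184 heart where compared, and with the compared groups alone. Upper-quartile factors ended both Klf9 calls and that of Herpud1 in CD JZL184 versus CD VEH, and RLE factors that of Klf9 in CD JZL184 versus WT JZL184.

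Since Per1 also answers to glucocorticoids and to acute stimuli, 9 glucocorticoid-responsive and 8 immediate early genes were counted. Of the 9, Per1 among them, 1 rose in CD VEH versus WT VEH (Sgk1; 30.4% of all genes were called) and 3 fell in WT JZL184 versus WT VEH (Zbtb16, Cdkn1a and Klf9; 29.4%). Of the 7 immediate early genes tested, 3 rose in CD VEH versus WT VEH (Jun, Junb and Ier2; 30.4% of all genes were called), with a median log2 fold-change of 0.74 over the 7. Of the same 7, 2 fell in CD JZL184 versus CD VEH (Ier2 and Atf3; 33.8% of all genes), with a median of -0.66. In that comparison Zbtb16 rose and Sgk1 fell among the glucocorticoid-responsive genes, and in CD JZL184 versus WT JZL184 (38.3% of all genes) Zbtb16 and Klf9 rose and Sgk1 fell. Sgk1 and Ier2 were higher in every WT JZL184 and CD VEH heart than in any WT VEH or CD JZL184 heart. For Ier2 the margin was narrow, with WT JZL184 A at 8.84 CPM and WT VEH C at 8.81. The summed endothelial, fibroblast, smooth muscle and macrophage markers and the mitochondrial share were higher in the same hearts. Their part in Sgk1 and Ier2 was not tested. The Zbtb16 call in CD JZL184 versus CD VEH was lost without CD JZL184 A, where its difference was 0.22 in place of 0.40 (adjusted p = 0.104), and without CD VEH A or E (adjusted p up to 0.0955). All of these calls against WT VEH were lost without either WT VEH heart (adjusted p up to 0.229). Those in CD VEH were also lost without CD VEH A (adjusted p up to 0.126), those of Sgk1, Junb and Ier2 without E and that of Jun without C, and those of Zbtb16 and Cdkn1a without WT JZL184 B or D (adjusted p up to 0.0891). A gene length offset ended the calls of Jun, Junb and Ier2 (adjusted p up to 0.0785), and robust dispersion that of Junb (0.0637).

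The genes outside the 10 members whose pattern over the 11 hearts was nearest to that of Arntl, by the root mean square difference of centred log2 CPM, were Mapk4 (0.16), Kbtbd13 (0.20) and Dusp8 (0.22), where the median over all genes was 0.43. Mapk4 was between 2.35 CPM, in WT JZL184 B, and 6.37 CPM, in WT VEH D. Nearest to Dbp were Tcap (0.51), Inmt (0.52) and the rhythmic gene Tspan4 (0.56), with a median over all genes of 0.89. A gene that did not vary would score 0.41 against Arntl and 0.88 against Dbp. Much of the variation of Dbp was thus not matched by its nearest genes. Tcap, which encodes a sarcomere protein, was at 811, 817 and 922 CPM in WT JZL184 B, CD VEH A and CD VEH C, and between 372 and 646 CPM in the other 8 hearts.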

How the data were processed

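RNA-seq was done by the authors on hearts of 11 male mice (HiSeq3000). They deposited 1 table of estimated counts (genes by mice), not normalized, made with Salmon 0.7.2 on GRCm38 (Ensembl release 85) and tximport (1.2.0). Its columns name the group and a letter found in no sample label; 0 columns of per-sample values were unused.

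The counts were rounded and genes whose log2 CPM averaged 1 or more were tested with the edgeR 4.0.16 quasi-likelihood test in R 4.3.3 (TMM factors, 4 groups in 1 model, limma 3.58.1), with Benjamini-Hochberg adjustment over 11319 genes and a threshold of 0.05. DESeq2 1.42.0 was an alternative. Log2 CPM had a prior count of 2. The scripts were tested on simulated data. Symbols, positions and exon lengths came from GENCODE M21, which matched 22238 of 22608 identifiers; Cry1, Nr1d2 and Tef had another version there.

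The members and all lists were chosen with earlier results of these data known. Named genes were the 10 members, called genes of the listed clock, rhythmic, glucocorticoid and immediate early genes, and the 3 genes nearest in pattern to Arntl and to Dbp. Another listed clock gene is not reported here. Clock, the partner of Arntl, was named after its values were seen. Counting error is small at this depth (at least 190 counts per member and mouse). Other scalings, filters, models and left-out mice were tried.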

Additional observations from a re-analysis of the deposited data

Results flagged for a closer look

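The JZL184 effect differed between CD and WT mice by the interaction test (edgeR, adjusted over all genes) for 14 (36.8%) of 38 tested genes from the further clock, rhythmic, glucocorticoid-responsive and immediate early lists and the genes nearest in pattern. The test called 51.5% of all tested genes and none of the 10 clock genes, of which 1 had an unadjusted p under 0.05. It also called all 5 endothelial, all 5 smooth muscle and pericyte, all 5 macrophage and all 4 globin markers, each negative. It called 3 of 5 fibroblast markers, also negative. Of 6 cardiomyocyte markers, 3 were called positive and 1 negative. The part of these cells in the interactions below was not tested. Of the further clock genes, Rora (0.48 on the log2 scale, adjusted p = 0.0105) and Btrc (0.36, adjusted p = 0.0305) had positive interactions and Timeless a negative one (-1.22, adjusted p = 0.000311). That of Btrc changed sign, to -0.016, with a gene length offset. Of the rhythmic output genes, Klf15 (0.99, adjusted p = 0.000157), Klf9 (0.38, adjusted p = 0.0213) and Herpud1 (0.61, adjusted p = 0.0142) were positive and Tspan4, also among the genes nearest to Dbp, was negative (-1.31, adjusted p = 0.00849). Dusp8, among the genes nearest to Arntl, was positive (0.58, adjusted p = 0.0394). The nearest genes were picked by their values in these same hearts, so their calls are not an independent test. Of the other glucocorticoid-responsive genes, Zbtb16 was positive (0.89, adjusted p = 0.00238) and Sgk1 (-1.24, adjusted p = 0.000314) and Mt2 (-2.12, adjusted p = 0.0352) were negative. The immediate early genes Ier2 (-1.16, adjusted p = 0.00447), Junb (-1.01, adjusted p = 0.0418) and Atf3 (-0.67, adjusted p = 0.0406) were negative.

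Those of Timeless, Tspan4, Klf15, Sgk1, Zbtb16 and Ier2 passed under all 19 other settings. Herpud1 passed under 18, Rora under 17, Klf9 under 14, Btrc under 12, Dusp8, Mt2 and Atf3 under 11 and Junb under 9, with adjusted p up to 0.0645, 0.15, 0.063, 0.915, 0.101, 0.145, 0.221 and 0.125. The single hearts without which a call was lost were WT VEH D for Herpud1 and WT VEH C for Rora. For Klf9 they were both WT VEH hearts, CD JZL184 A and CD VEH E, and for Btrc WT VEH C, WT JZL184 A, CD JZL184 E and CD VEH A and E. Dusp8 lost it without any WT VEH or CD JZL184 heart and without CD VEH A or C, and Mt2 without WT VEH C, WT JZL184 B, CD JZL184 A or E, or CD VEH A or C. Without WT JZL184 B the interaction of Mt2 was -1.18 and that of Tspan4, still called, -0.87. Junb lost it without any WT VEH heart, WT JZL184 B, CD JZL184 A or E, or CD VEH A or E, and with DESeq2, and Atf3 without any WT VEH or CD JZL184 heart, WT JZL184 A or CD VEH A.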

How the results depend on the processing

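No paired analysis was possible because the letters of the columns are in no sample label, so a fit with a replicate block was not run. The alternatives for the spread between mice and for genes outside the 10 were chosen after the data were seen. Of 910 fitted values of the 10 clock genes under other settings, 842 kept their direction and their side of the threshold, 51 changed sign, 13 gained a call and 4 lost it. The number of clock genes called in CD VEH versus WT VEH, 0, became 1 with a gene length offset, 1 with DESeq2 and 2 when the model held the compared groups alone. With these alone it also became 1 in CD JZL184 versus CD VEH and 0 in CD JZL184 versus WT JZL184, and all genes called fell from 3332 to 1652 in WT JZL184 versus WT VEH and rose from 21 to 88 in CD JZL184 versus WT VEH (105 with DESeq2). Without a filter on low counts, 2 clock genes were above the 90th percentile of the spread. The causes were not tested.

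With each mouse left out in turn, the count of clock genes called ranged from 0 to 1 in CD VEH versus WT VEH (1 without CD VEH E), 0 to 1 in WT JZL184 versus WT VEH (1 without WT JZL184 B), 0 to 1 in CD JZL184 versus WT JZL184 (0 without CD JZL184 C or E) and 0 to 2 for the interaction. All genes called ranged from 385 (without WT VEH C) to 3539 in CD VEH versus WT VEH, 558 (without WT VEH C) to 4487 in WT JZL184 versus WT VEH, 2038 (without CD VEH E) to 3912 in CD JZL184 versus CD VEH and 12 (without WT VEH C) to 18 in CD JZL184 versus WT VEH. With a mouse of WT VEH left out, the other one was assumed to vary like the other groups.

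Values of the clock genes that changed sign were near 0 or rested on 1 mouse. Their log2 ranges with each mouse left out were, in CD VEH versus WT VEH, -0.41 to 0.037 for Per1 and -0.30 to 0.066 for Per3. In WT JZL184 versus WT VEH they were -0.51 to 0.018 for Arntl, -0.24 to 0.15 for Cry1, -0.53 to 0.31 for Nr1d1, -0.23 to 0.16 for Nr1d2 and -0.16 to 0.18 for Tef. For CD JZL184 versus CD VEH they were -0.21 to 0.29 for Per2, -0.34 to 0.036 for Nr1d1 and -0.15 to 0.13 for Nr1d2. Those of CD JZL184 versus WT JZL184 were -0.26 to 0.27 for Arntl, -0.14 to 0.78 for Per1, -0.35 to 0.11 for Per3, -0.34 to 0.049 for Cry1, -0.96 to 0.76 for Dbp and -0.12 to 0.22 for Tef. In CD JZL184 versus WT VEH they were -0.013 to 0.42 for Per3 and -0.032 to 0.16 for Tef, and in the interaction -0.22 to 0.27 for Per3, -0.43 to 0.40 for Nr1d1 and -0.18 to 0.25 for Nr1d2. The gene length offset gave -0.021 for Nr1d1 in WT JZL184 versus WT VEH and -0.046 for Tef in CD JZL184 versus WT JZL184. Outside the members it gave -0.016 for the interaction of Btrc, which was 0.36 and called in the main fit. Upper-quartile factors gave -0.0086 for Nr1d2 in CD JZL184 versus CD VEH and -0.023 for Tef in CD JZL184 versus WT JZL184, where the compared groups alone gave -0.0034. For the interaction of Per3 and of Nr1d2, the values were 0.0050 and 0.00037 without mitochondrial genes, 0.0065 and 0.0028 without a filter, and 0.016 and 0.011 with at least 10 counts in every mouse.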
